A study of Mus musculus with 6 samples.

Results

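Chemokine receptors are membrane proteins that couple to inhibitory G proteins and steer cells along gradients of chemokines, small secreted ligands. Blood-borne progenitors are known to enter the thymus through Ccr9 and Ccr7, whose ligands thymic stroma makes, and Cxcr4 is known to hold early thymocytes in the cortex and to aid their growth. Ccr2, Ccr4, Ccr6, Cxcr3, Cxcr5 and Cxcr6 are better known from effector, helper, follicular and innate-like lymphocytes and from myeloid cells. These 9 receptor genes, Ccr2, Ccr4, Ccr6, Ccr7, Ccr9, Cxcr3, Cxcr4, Cxcr5 and Cxcr6, are described here in sorted mouse DN2 cells with and without E2A. The members were every probe set that the array's annotation gives to exactly 1 of these genes, which made 17 probe sets for 9 genes, out of 34945 probe sets for 18193 genes. Ccr9 had 5 probe sets, Ccr2 had 4, Cxcr6 had 2, and the other 6 genes had 1 each.

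The arrays held RNA of DN2 thymocytes, CD4- CD8- progenitors on their way to T-lineage commitment, sorted from thymi of FVB fetuses. Each genotype, wild type or E2A deficient, was measured on 3 arrays, and the labels name no treatment. E2A stands for the transcription factors encoded by Tcf3, E proteins that bind a DNA motif called an E-box. Fetal age, the E2A allele and the number of animals behind each array are not given in the sources used here, so the p-values cover array-to-array spread that may be technical. The study's stated goal was to look into genes that need E2A in developing T cells.

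The series as a whole set limits on these values. The brightest Tcf3 probe set read 477, 421 and 414 in wild-type and 236, 229 and 281 in E2A-deficient arrays, a fall of Tcf3 in all 3 of the latter (log2 change -0.81, limma adjusted p = 0.00864). Of the genes used to recognise the DN2 stage, Kit, Cd44, Il2ra, Il7r and Ptprc exceeded the upper quartile of their array on all 6 arrays and did not pass the test, whereas Thy1 fell in E2A-deficient cells by 1.32 on the log2 scale (limma adjusted p = 0.00158). Array medians were 77.4 to 79.0 and upper quartiles 131 to 136 in arbitrary intensity units. The female transcript Xist read 3055, 4456 and 58.7 in wild-type arrays and 1247 to 2154 in E2A-deficient arrays. The Y-linked Eif2s3y read 204, 58.0 and 343 against 208 to 339, and Kdm5d 85.2, 53.5 and 162 against 110 to 126, so the balance of these X- and Y-linked transcripts differed most among the wild-type arrays. The log2 ratio of the 5' to the 3' beta-actin control, a sign of RNA integrity and of how far the labelling ran, was -3.26, -2.63 and -3.35 in wild-type and -2.60, -2.65 and -2.74 in E2A-deficient arrays. Their part in the receptor results was tested only by adding each as a covariate.

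Ccr6, Cxcr6 and 2 of the 4 probe sets of Ccr2 rose in E2A-deficient DN2 cells. With 1 probe set per gene, the brightest, Ccr2 did not pass (log2 change 0.16, limma adjusted p = 0.502). Of the 17 probe sets, 4 were called higher, 1 each for Ccr6 and Cxcr6 and 2 of the 4 for Ccr2 (limma, Benjamini-Hochberg adjusted p under 0.05). Over all 45037 probe sets tested, 1.21% were called higher. By limma 0 of the 17 were called lower, near the share of 0.58% over all probe sets. An unadjusted p under 0.05 was found for 8 rises and 0 falls among the 17, and for 8.11% rises and 4.41% falls over all probe sets. The median log2 change was 0.16 over the 17 probe sets and 0.0039 over all probe sets tested. Probe sets of 1 gene share their transcript, so these 17 values are not independent. The receptors were also chosen with earlier results of these data known, so a share above that of all probe sets is no test of them.

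**Figure D1:**
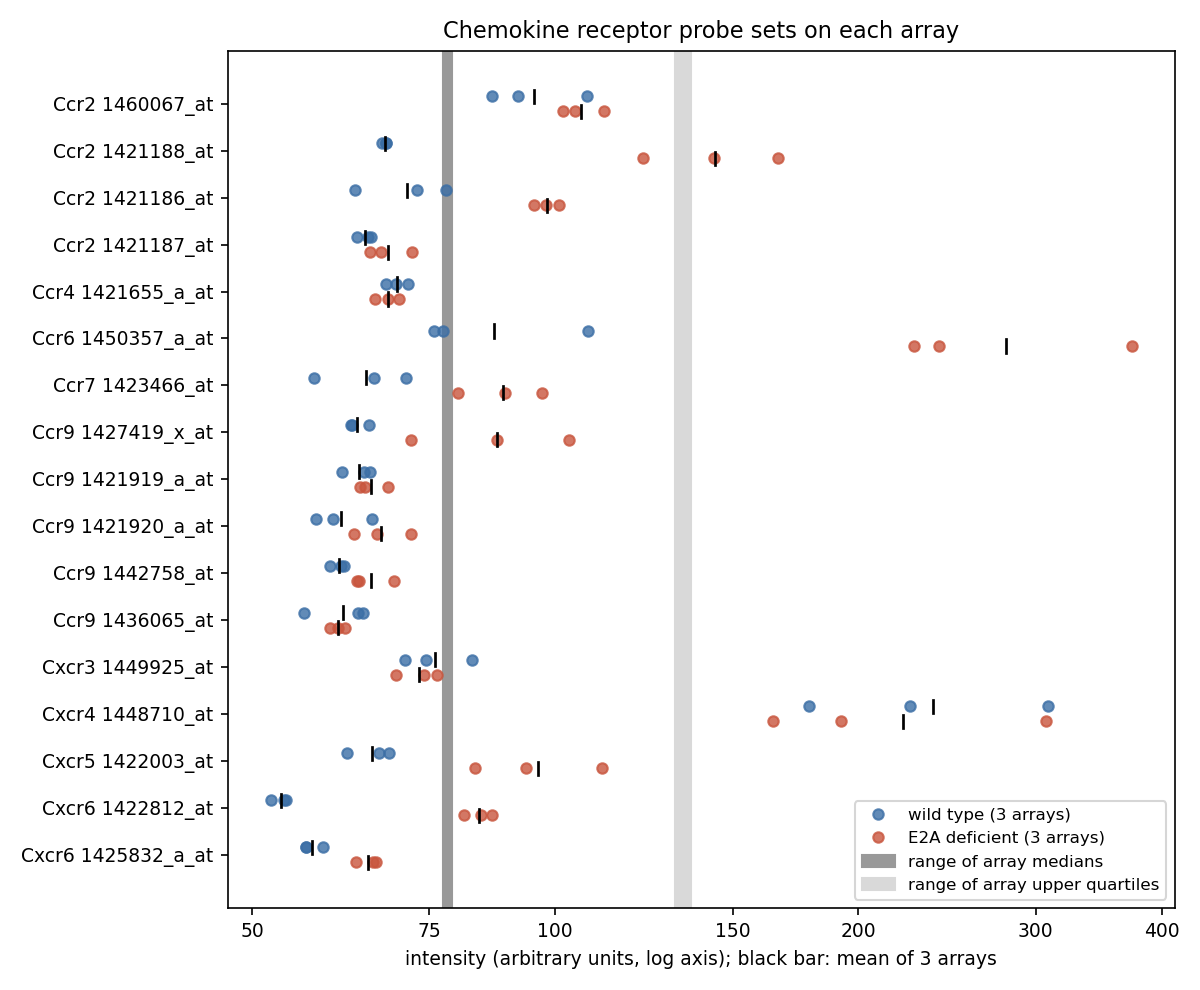
Intensity (log axis, arbitrary units) of each of the 17 receptor probe sets on each of the 6 arrays, 3 wild type in blue and 3 E2A deficient in red, with the mean of each group as a black bar. Grey bands show the range of array medians (77.4 to 79.0) and of upper quartiles (131 to 136); Ccr6 crosses the upper band between the groups, and Cxcr4 lies above it on all arrays.

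Most of these receptor probe sets were read below the upper quartile of the arrays, where most probe sets lie. In 14 of the 17 probe sets no array exceeded its upper quartile, and in 1, that of Cxcr4, all 6 did. Of the 102 single readings 91 were not above that quartile, where by definition 75% of all readings lie. A low intensity here is not a measured absence, since the deposited values hold no detection calls. Intensities of different probe sets are not set against each other, except to choose the brightest of a gene and to sum and rank markers. Changes are on the log2(intensity + 1) scale. In RNA from a pool of cells, more cells that use a receptor and more RNA per cell cannot be told apart.

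Cxcr6, the receptor for the membrane-bound chemokine Cxcl16 and a receptor of innate lymphoid and NKT cells, had the smallest p of the members. Its probe set 1422812_at read 52.2, 54.1 and 53.8 in wild-type arrays and 81.2, 86.6 and 84.4 in E2A-deficient arrays. The groups were far apart relative to their spread, with means of 53.4 ± 0.997 and 84.1 ± 2.72 (SD, n = 3). The log2 change was 0.65 (SE 0.0534, limma adjusted p = 0.00220). On the wild-type arrays this signal lay below the lower quartile, 62.9 to 64.5, and on the E2A-deficient arrays just above the median. The other probe set, 1425832_a_at, went the same way without overlap, from 56.5, 58.9 and 56.6 to 63.4, 66.4 and 66.0. Its change of 0.18 did not pass (limma adjusted p = 0.178). The change was larger in 1422812_at by 0.46 (SE 0.0818, limma adjusted p = 0.0424 over all pairs of probe sets of a gene), so the probe sets shared a direction but not a size. That difference lost its call without any 1 of the 6 arrays (adjusted p up to 0.153; over all its alternatives 0.0113 to 0.365).

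Ccr6, the receptor for Ccl20 on some effector lymphocytes and on B cells, changed most of the 17. Its only probe set, 1450357_a_at, read 77.3, 75.8 and 108 in wild-type arrays and 241, 374 and 227 in E2A-deficient arrays. The lowest E2A-deficient array was above the highest wild-type array, and wild-type replicate 3 and E2A-deficient replicate 2 stood above their groups. Group means were 87.0 ± 18.1 and 280 ± 80.9 (SD, n = 3), and all 3 E2A-deficient arrays were above the upper quartile that no wild-type array reached. On the log2 scale the rise was 1.66 (SE 0.211, limma adjusted p = 0.0124). The call was lost without wild-type replicate 2 (log2 change 1.57, limma adjusted p = 0.0591; over its alternatives 0.00114 to 0.117). Wild-type replicate 3 was also the array nearly without Xist, and with Xist as a covariate Ccr6 was still called.

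Ccr2, which draws monocytes and some effector lymphocytes toward Ccl2, was read differently by its 4 probe sets. Probe set 1421188_at read 67.9, 67.3 and 67.8 in wild-type arrays and 166, 122 and 144 in E2A-deficient arrays. These groups did not overlap, and the log2 change was 1.07 (SE 0.106, limma adjusted p = 0.00428). Probe set 1421186_at read 77.8, 63.2 and 72.9 against 95.4, 98.0 and 101, again without overlap, and changed by 0.46 (SE 0.0824, limma adjusted p = 0.0436). This second call was fragile: it was lost without any 1 of 5 of the arrays (adjusted p 0.0708 to 0.159; over its alternatives 0.0124 to 0.159), the exception being wild-type replicate 1. The third, 1460067_at, which the per-gene test used for its highest mean log2 intensity, overlapped between the groups, at 86.6, 91.9 and 108 against 112, 105 and 102. Its change of 0.16 did not pass, with a 95% interval of -0.05 to 0.36 that leaves out the size seen in 1421188_at. The fourth, 1421187_at, overlapped too, at 65.6, 63.5 and 65.2 against 72.0, 65.4 and 67.1, and its 0.07 did not pass. The change in 1460067_at was smaller than that in 1421188_at by a log2 difference of -0.91 (SE 0.127, limma adjusted p = 0.0182). That difference was called without wild-type replicate 1 or E2A-deficient replicate 2 and not without any other single array (adjusted p up to 0.0833; over its alternatives 0.00466 to 0.272). Of the 8 such pairs within Ccr2, Ccr9 and Cxcr6, 2 were called, where 1.15% of all 16752 pairs were. The target positions of these probe sets were not used here.

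**Figure D2:**
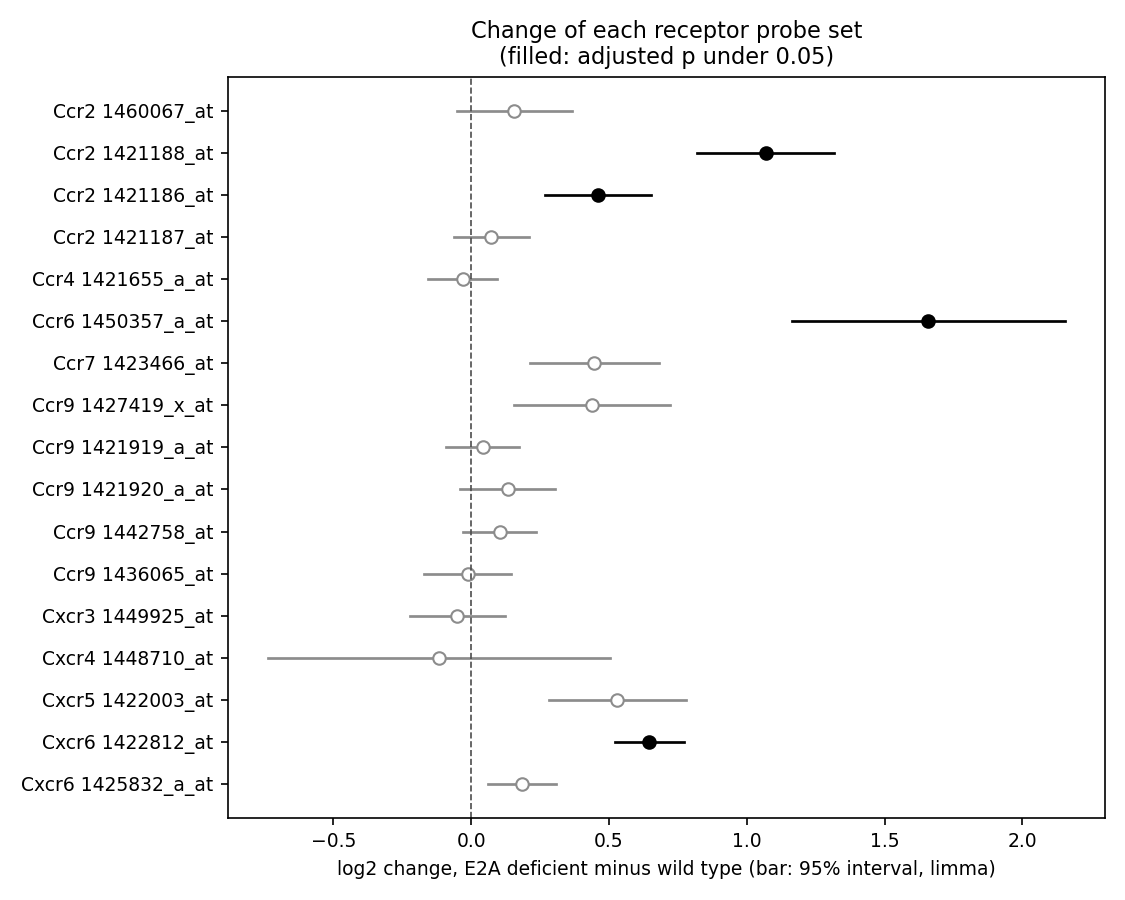
Log2 change (E2A deficient minus wild type, 3 arrays each) of each of the 17 receptor probe sets with its 95% interval from limma; filled points passed the adjusted p threshold of 0.05. The 4 filled points, of Ccr2, Ccr6 and Cxcr6, lie between 0.46 and 1.66, and the interval of Cxcr4 is the widest.

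Cxcr5 and Ccr7, the receptors that guide lymphocytes to B-cell follicles and to lymph nodes, were read higher in E2A-deficient cells without overlap but lay near the threshold. Cxcr5 read 66.9, 62.2 and 68.3 in wild-type arrays and 93.6, 83.3 and 111 in E2A-deficient arrays. Its log2 change of 0.53 (SE 0.106) did not pass over all probe sets (limma adjusted p = 0.0636). With 1 probe set per gene, which tests fewer features, it passed (adjusted p = 0.0437; over its alternatives 0.00324 to 0.190). That call was lost without any 1 of the 6 arrays except E2A-deficient replicate 2, the lowest adjusted p among these losses being 0.0767. Ccr7 read 57.6, 66.1 and 71.1 against 89.2, 80.1 and 97.0, a log2 change of 0.45 (SE 0.0999) that did not pass per probe set (limma adjusted p = 0.0925) or per gene (0.0656). Per gene it passed when variances followed an intensity trend (0.00648) and when each gene's probe sets were averaged (0.0465). In the fit per gene 3 of the 9 receptors, Ccr6, Cxcr6 and Cxcr5, were called higher, against 2.4% of all 18193 genes. By limma 0 were called lower, against 1.06%. Since the receptors were chosen with earlier results of these data known, these shares describe them and do not test them. The brightest probe set was chosen over all 6 arrays, so the E2A-deficient arrays had a part in the choice. For Cxcr6 the chosen probe set averaged 53.4 in wild-type arrays and the other 57.3. Unadjusted p-values under 0.05 were found for 5 rises and 0 falls among the 9, and for 11.1% rises and 4.56% falls over all genes.

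Ccr9, the receptor for the thymic chemokine Ccl25, was dim on all 5 of its probe sets. The brightest, 1427419_x_at, read 62.9, 65.3 and 62.6 in wild-type arrays and 71.9, 87.5 and 103 in E2A-deficient arrays. Those groups did not overlap, and the log2 change of 0.44 (SE 0.121) did not pass (limma adjusted p = 0.162). It passed per probe set only when E2A-deficient replicate 1 was left out (0.57, adjusted p = 0.0485). The suffix x marks a probe set that can also hybridise to other transcripts. The other 4 gave log2 changes of -0.01 to 0.13, and none passed. Their intensities lay between 56.3 and 72.0 on all 6 arrays, below every array median. Each of the 4 differed from 1427419_x_at by 0.31 to 0.45 on the log2 scale, and none of these differences passed (limma adjusted p 0.268 to 0.384).

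Cxcr4, the receptor for Cxcl12, was the one member above the upper quartile on every array, and it varied most within groups. It read 309, 225 and 179 in wild-type arrays and 192, 165 and 307 in E2A-deficient arrays. The groups overlapped fully, with means of 237 ± 65.9 and 221 ± 75.6 (SD, n = 3). The log2 change was -0.12 (SE 0.265, limma adjusted p = 0.943), and its 95% interval of -0.74 to 0.50 covers a clear fall as well as a moderate rise. The sign turned without wild-type replicate 1 (0.09) or E2A-deficient replicate 2 (0.07).

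Ccr4 and Cxcr3, known as receptors of type 2 and type 1 effector T cells, showed little difference. Ccr4 read 68.0, 71.5 and 69.5 in wild-type arrays and 70.0, 68.2 and 66.2 in E2A-deficient arrays. Its change of -0.03 had a 95% interval of -0.16 to 0.09 and did not pass (limma adjusted p = 0.915). Cxcr3, which lies on the X chromosome, read 74.5, 70.9 and 82.7 against 76.3, 69.4 and 74.1, and its change of -0.05 (95% interval -0.22 to 0.12) did not pass in limma's test (adjusted p = 0.892). The highest of these Cxcr3 values was on wild-type replicate 3, the array nearly without Xist. Without that array the change was 0.01, and with Xist as a covariate it still did not pass.

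Across the 17 probe sets, all 3 E2A-deficient arrays exceeded all 3 wild-type arrays in 9, a pattern found in 10.1% of all probe sets. The reverse was found in 0 of the 17 and in 6.79% of all probe sets. Both probe sets of Cxcr6, 2 of 4 of Ccr2 and 2 of 5 of Ccr9 were among the 9, with those of Ccr6, Ccr7 and Cxcr5.

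The calls can be read against the processing. The 5' to 3' ratio of beta-actin partly followed genotype. On the log2 scale it was -3.26 and -3.35 on wild-type replicates 1 and 3 and -2.63 on wild-type replicate 2. The E2A-deficient arrays had -2.60 to -2.74. A fit with this covariate therefore cannot fully tell the ratio and genotype apart. With a covariate for the 5' to 3' ratio of beta-actin, 0 of the 17 probe sets were called by limma. The 4 log2 changes were then 0.61 to 1.82, with adjusted p from 0.0522 for Cxcr6 to 0.117 for Ccr6, and 71 probe sets in all were called higher against 543 without it. In that fit per gene 1 receptor, Cxcr6, was called (adjusted p = 0.0344). Apart from that covariate, 1422812_at of Cxcr6 and 1421188_at of Ccr2 were called in every limma alternative that tested them. The exact permutation test of 3 against 3 cannot go below p = 0.1, which all 4 called probe sets reached.

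**Figure D3:**
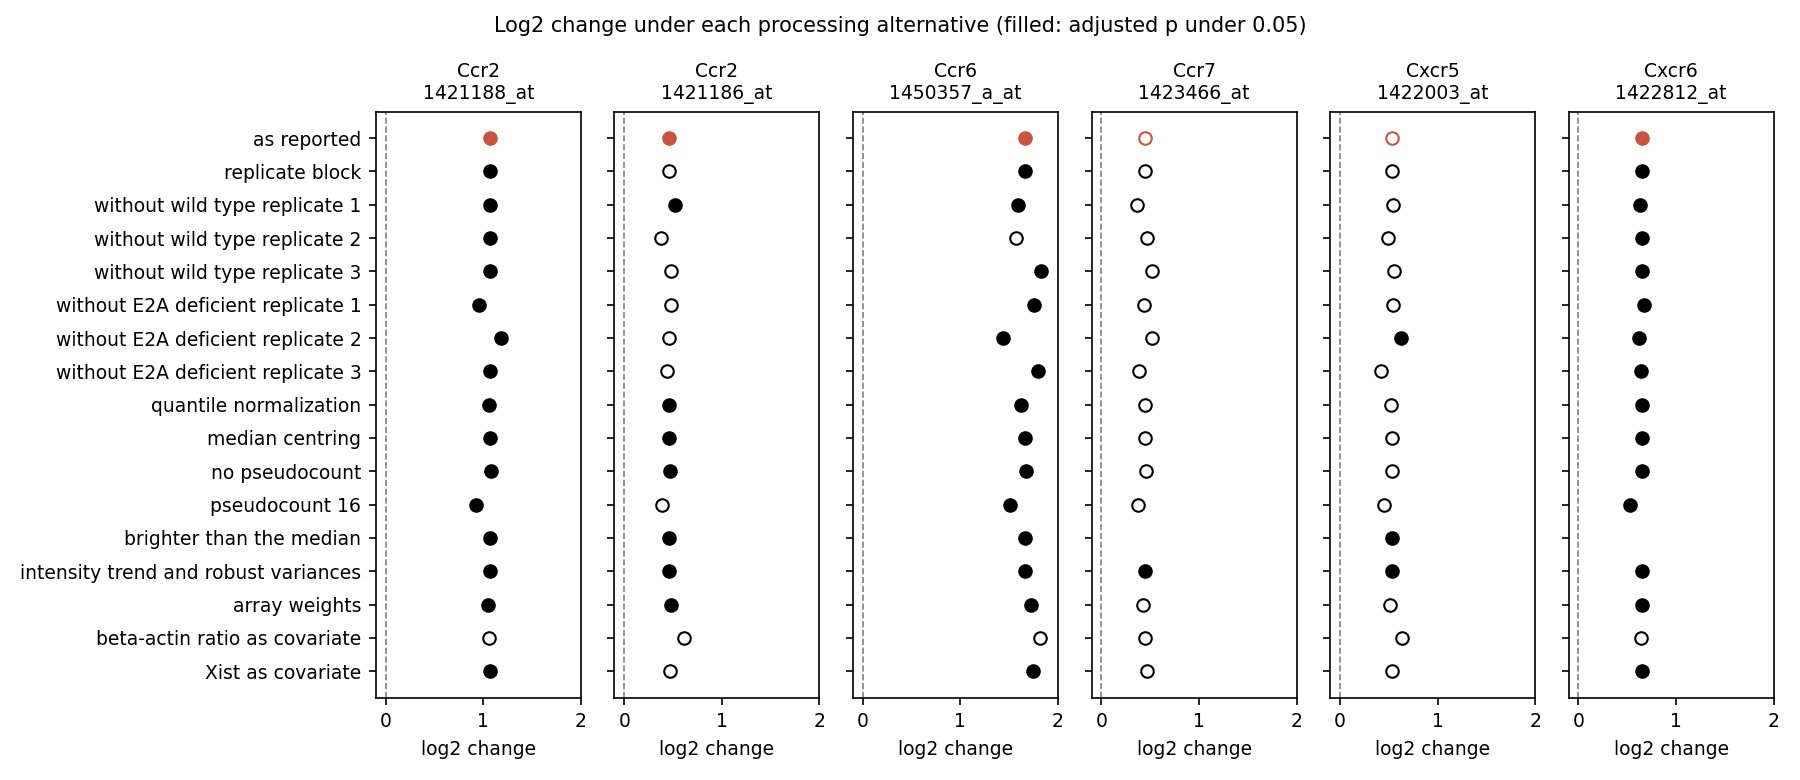
Log2 change (horizontal axis) of 6 receptor probe sets under each processing alternative (vertical axis), with the value as reported in red; filled points passed an adjusted p of 0.05 and a missing point means that the probe set was filtered out. All points lie to the right of 0, and those of Cxcr6 1422812_at lie between 0.53 and 0.67.

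The promoters of the 3 genes called per probe set are shown because E2A binds E-boxes, written CANNTG. RefSeq promoters (GRCm38.p6) were found for 7 of the 9 genes, 8 in all since Ccr6 has 2 starts, and not for Ccr7 and Cxcr5. Each run is the 250 bases before a start, 5′ to 3′ on the gene's strand, with E-boxes in capitals.
Cxcr6, chr9:123806227-123806476, plus strand: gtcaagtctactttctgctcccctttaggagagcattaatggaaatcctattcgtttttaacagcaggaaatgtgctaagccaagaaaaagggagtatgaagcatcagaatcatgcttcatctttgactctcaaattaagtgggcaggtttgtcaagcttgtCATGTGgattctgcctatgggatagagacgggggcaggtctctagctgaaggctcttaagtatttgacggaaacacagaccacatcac
Ccr2, chr9:124101933-124102182, plus strand: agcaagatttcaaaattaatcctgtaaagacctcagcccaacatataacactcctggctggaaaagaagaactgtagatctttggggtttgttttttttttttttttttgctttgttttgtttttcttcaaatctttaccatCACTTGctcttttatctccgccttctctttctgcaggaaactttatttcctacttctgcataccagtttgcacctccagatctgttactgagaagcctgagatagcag
Ccr6 first start, chr17:8235793-8236042, plus strand: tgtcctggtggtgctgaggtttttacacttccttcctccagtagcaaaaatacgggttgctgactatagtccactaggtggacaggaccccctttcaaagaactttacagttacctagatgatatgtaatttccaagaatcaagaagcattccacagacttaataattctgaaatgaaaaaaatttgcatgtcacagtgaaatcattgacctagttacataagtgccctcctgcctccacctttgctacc
Ccr6 second start, chr17:8242276-8242525, plus strand: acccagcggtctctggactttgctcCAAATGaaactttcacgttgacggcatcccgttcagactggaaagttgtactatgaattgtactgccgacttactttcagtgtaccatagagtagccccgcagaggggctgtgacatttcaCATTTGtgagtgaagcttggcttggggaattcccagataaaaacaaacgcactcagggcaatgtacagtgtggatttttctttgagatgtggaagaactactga
Ccr9, not called, for comparison, chr9:123766961-123767210, plus strand: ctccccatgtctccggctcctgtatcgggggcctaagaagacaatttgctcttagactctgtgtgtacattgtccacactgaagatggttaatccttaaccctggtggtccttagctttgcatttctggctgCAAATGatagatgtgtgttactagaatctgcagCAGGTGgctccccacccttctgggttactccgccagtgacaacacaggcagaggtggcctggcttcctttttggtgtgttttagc
The Cxcr6 window held 1 E-box, CATGTG, with its first base at -88 from the start. That of Ccr2 held CACTTG at -108. The first Ccr6 window held none and the second held CAAATG at -225 and also CATTTG at -104. The Ccr9 window held CAAATG at -118 and also CAGGTG at -85. At least 1 E-box stood in 6 of the 8 windows and in 66.2% of 32851 promoter windows of that length. The forms best known for E2A were searched on both strands, first CACCTG with its complement CAGGTG, then the palindrome CAGCTG. The first was found in 3 of the 8 windows, those of Ccr4, Ccr9 and Cxcr3, and in 17.2% of all, and the palindrome in 0 of the 8 and in 13.0% of all. These matches are letters in a window, not measured binding.

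Ccr9, Cxcr6 and Ccr2 lie in a cluster of chemokine receptor genes on chromosome 9, so the genes next to the called receptors were read too. Fyco1, whose gene overlaps Cxcr6 in the RefSeq table, did not differ beyond its spread, with 159, 124 and 169 in wild-type and 143, 157 and 150 in E2A-deficient arrays (limma adjusted p = 0.995). On the other side Xcr1, a receptor of cross-presenting dendritic cells, did not pass either (adjusted p = 0.942). Beside Ccr2, Ccr3 (adjusted p = 0.755) and 2010315B03Rik (0.975) did not pass. Beside Ccr6, Cep43 (0.833) and Mpc1 (0.697) did not pass by limma.

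Among all genes, those most like each called probe set were sought by the root mean square difference of mean-centred log2 values over the 6 arrays. For 1421188_at of Ccr2 these were Il4, the type 2 cytokine (0.0352), which read 69.3, 64.8 and 68.4 in wild-type and 173, 124 and 142 in E2A-deficient arrays, and the SLAM receptor Slamf1 (0.0590). For Ccr6 they were the chromatin remodeller Chd7 (0.278) and Niban1 (0.279). For 1422812_at of Cxcr6 they were the zinc-finger gene Zfp612 (0.0256) and Fam20a (0.0533). With 6 arrays in 2 groups, such likeness mostly restates a shared difference between the groups.

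The 9 receptors can be set beside the other genes of chemokine response, with 1 probe set per gene. These lists and the homing list were likewise chosen with earlier results known, so their shares of calls are descriptive only. Of 13 other chemokine receptors 1 rose, where 2.4% of all genes did. It was the fractalkine receptor Cx3cr1, which went from 91.5, 99.4 and 104 to 204, 189 and 148. The groups did not overlap, and the change was 0.86 on the log2 scale (SE 0.120, limma adjusted p = 0.0118; not called with the beta-actin covariate, 0.167). Its other, dim probe set gave 0.03. Next in order of p, Ccr1 (log2 change 0.27, adjusted p = 0.194) and Ccr8 (0.10, adjusted p = 0.488) did not pass in limma's test. The median change of the list was 0.02, close to the 0.01 of all genes, while that of the 9 receptors was 0.44. The latter is the value of the Ccr9 x probe set, and without probe sets of the s and x suffixes the median of the 9 was 0.16.

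Among 13 ligands of the 9 receptors 1 rose, beside 2.4% of all genes. It was Cxcl12, the ligand of Cxcr4 that stromal cells make, which read 62.0, 62.8 and 60.3 in wild-type and 88.0, 122 and 112 in E2A-deficient arrays. All E2A-deficient arrays were above all wild-type arrays, by 0.78 on the log2 scale (SE 0.117, limma adjusted p = 0.0150). Another 2 probe sets of Cxcl12 gave 0.07 and 0.31 and did not pass. The call was lost without wild-type replicate 2 (adjusted p = 0.0537), wild-type replicate 3 (0.0501) or E2A-deficient replicate 3 (0.0626), and with the beta-actin covariate (0.174). Of 20 further chemokines 1 rose, beside the same 2.4% of all genes. It was Ccl5, a product of effector lymphocytes, which went from 109, 70.3 and 76.2 to 162, 164 and 227 (log2 change 1.11, SE 0.191, limma adjusted p = 0.0243). It was called without wild-type replicate 1 and not without any other single array (adjusted p 0.0577 to 0.0786; over 18 alternatives up to 0.103).

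Of 35 genes that carry chemokine receptor signals 5 rose and 0 fell by limma, beside the 2.4% and 1.06% of all genes given above, and 18 rises and 1 fall had an unadjusted p under 0.05, beside 11.1% and 4.56% of all genes. Of the 35 genes 32 were brighter on average than the median probe set, so the shares over all genes are not matched for brightness. The list's median change was 0.21, and 0.14 after quantile normalization or with probe sets averaged. The G protein subunits Gng2 (0.71, adjusted p = 0.00203) and Gnai3 (0.66, adjusted p = 0.0198) rose, as did the G protein brakes Rgs14 (0.43) and Rgs1 (0.43) and the adhesion GTPase Rap1a (0.33). Gng2 read 174, 173 and 188 in wild-type arrays and 298, 277 and 303 in E2A-deficient arrays, with no overlap. Its other 3 probe sets gave 0.001 to 0.22 and did not pass, nor did the other probe set of Gnai3 (0.16, limma adjusted p = 0.714). Rap1a was the least steady of the 5, called in 6 of 18 alternatives, and Gng2 was called in all 18. Leaving out wild-type replicate 3 or E2A-deficient replicate 3 ended the call of Gnai3 (adjusted p = 0.0590 and 0.0610). Rgs14 and Rgs1 kept theirs only without wild-type replicate 1, and Rap1a lost its call without any 1 of the 6. In the list 5 genes were called without wild-type replicate 1, 1 or 2 without each other array, and 1, Gng2, with the beta-actin covariate.

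Other molecules of lymphocyte homing gave 5 rises and 0 falls among 14 genes by limma, beside 2.4% and 1.06% of all genes, with a median change of 0.22. All 14 were brighter on average than the median probe set, so these shares are not matched for brightness either. An unadjusted p under 0.05 was found for 8 rises and 2 falls, or 57.1% and 14.3%, beside 11.1% and 4.56% of all genes. Without wild-type replicate 1, Ptger4, a prostaglandin receptor, was called lower (-0.61, adjusted p = 0.0261). The integrin chain Itgb7, the gut-homing partner of Itga4 and Itgae, went from 212, 215 and 205 to 469, 412 and 463. The rise was 1.08 on the log2 scale (SE 0.0683, limma adjusted p = 5.19e-04). Itgb2, the common chain of leukocyte integrins, went from 119, 155 and 141 to 309, 318 and 325 (1.20, SE 0.0982, adjusted p = 0.00121). Itgae rose by 1.35, the selectin ligand Selplg by 0.61 and the oxysterol receptor Gpr183 by 0.77, and the second probe set of Gpr183 also passed (0.92). That of Itgae gave 0.41 and did not pass (limma adjusted p = 0.0683). Itgb7, Itgb2 and Selplg were called in all 18 alternatives, the beta-actin covariate included. With that covariate Itgae (adjusted p = 0.131) and Gpr183 (0.0675) were not called.

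**Figure D4:**
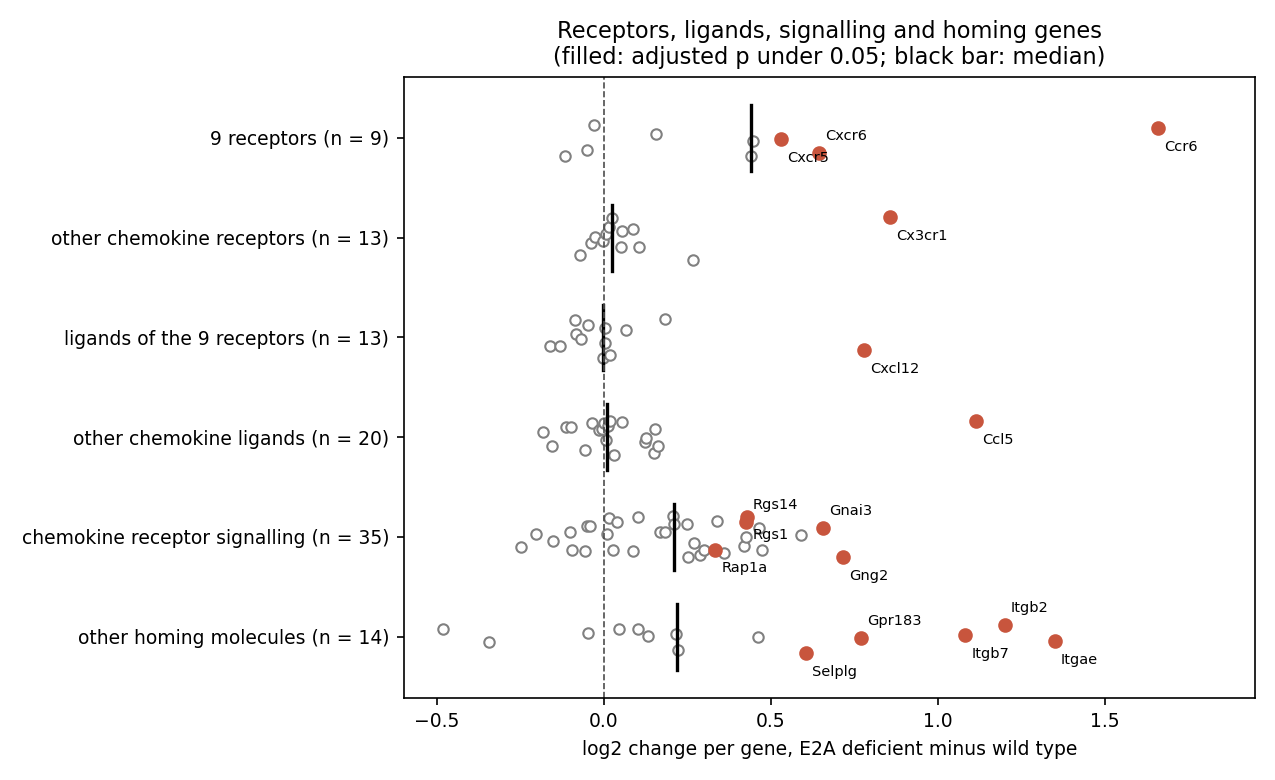
Log2 change per gene (E2A deficient minus wild type) for the 9 receptors and 5 lists of related genes, 1 point per gene with the median as a black bar; filled points passed an adjusted p of 0.05. The filled points, from 0.33 to 1.66, all lie to the right of 0 and are named.

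Several of these receptors are also markers of other cells, so lists of markers were read beside them. For innate lymphoid cells and innate-like T cells, 6 of 9 measured markers rose, Icos, Rora, Id2, Zbtb16, Gata3 and Il18r1. The summed intensity of all 9 was 1866 to 2222 in wild-type and 3736 to 4274 in E2A-deficient arrays, and that of the 6 was 874 to 1014 and 2935 to 3345. Il17rb, the brightest of the 9 in wild-type arrays, read 1066, 885 and 857 against 669, 842 and 790, lower without overlap, and did not pass (log2 change -0.29, limma adjusted p = 0.280). Tbx21 and Il2rb lay between 57.6 and 80.4 on all 6 arrays. Of 8 markers of later T cells Klf2 rose while Cd5 and Trat1 fell, with sums of 652 to 805 and 686 to 689. Of 10 myeloid markers, relevant to Ccr2, 1 fell, Lyz2 (-0.50), with sums of 1482 to 1750 and 1621 to 1850. Mpo made up most of these sums, at 829 to 1030 in wild-type and 938 to 1202 in E2A-deficient arrays. Its change of 0.19 did not pass (limma adjusted p = 0.565). No called change was found by limma in 8 dendritic-cell, 7 NK-cell, 8 B-lineage, 4 erythroid or 8 thymic epithelial markers, of which 0, 1, 1, 1 and 1 had an unadjusted p under 0.05. Of 8 endothelial and mesenchymal markers, relevant to Cxcl12, Pdgfrb fell (-0.90), with sums of 2143 to 2273 and 1388 to 1449. Pdgfrb made up most of these sums, and the other 7 markers summed to 454 to 494 in wild-type and 487 to 490.5 in E2A-deficient arrays. The part that other cell types had in the receptor results was not tested.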

How the data were processed

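Per the labels, RNA of cells sorted into lysis buffer was amplified in 2 rounds by a small-sample protocol and labelled with biotin. The authors deposited a linear-scale intensity for each probe set. RMA is the only tool in the submitters' processing notes. Its version, the step back to a linear scale and the build are not given in the sources used here. Quantile normalization, usually part of RMA, makes arrays alike in distribution, so only changes relative to other probe sets can be read.

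Control probe sets (64) were left out. The 45037 others were tested as log2(intensity + 1) across all probe sets with limma 3.58.1 (R 4.3.3; linear model, empirical Bayes, two-sided, Benjamini-Hochberg, threshold 0.05), with no further normalization or filter. The same fit was run across all genes with the brightest probe set of each. It was also run on the log2 difference between that probe set and each other of its gene. Brightest meant the highest mean over all 6 arrays, so these fits and the list medians rest partly on the E2A-deficient arrays. The chosen probe sets of Cxcr6, Ccr9, Cxcl12 and Itgae were not the brightest of their gene in wild-type arrays. An exact permutation test of 3 against 3 cannot go below p = 0.1. Steps were tested on simulated data. The annotation named 1 gene for 34945 probe sets, several for 932 and none for 9160. Promoter sequences and gene neighbours came from RefSeq tables of GRCm38.p6. Figures used matplotlib 3.10.9.

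The members and gene lists were chosen with earlier results of these data known. Named were all probe sets of the members, Tcf3, called genes of the pathway lists (or the 3 of smallest p), neighbours of called members, the 2 genes most like each, and called markers. Alternatives were the replicate block, each array left out, quantile normalization, median centring, pseudocounts, only bright probe sets, an intensity trend, array weights, covariates for beta-actin ratio and Xist, and other choices of probe set per gene.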

Additional observations from a re-analysis of the deposited data

How the results depend on the processing

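The number of receptor probe sets called higher was 4, and 2 to 4 with single arrays left out. Without E2A-deficient replicate 1 the called set held Ccr9 1427419_x_at in place of 1421186_at of Ccr2, and without replicate 2 Cxcr5. When variances followed an intensity trend, Cxcr5 and Ccr7 were called besides the 4 (limma adjusted p = 0.0114 and 0.0215). With a pseudocount of 16 or Xist as a covariate, 1421186_at lost its call (0.0508 and 0.0713). The number called was 0 with a covariate for the beta-actin ratio. In that fit all calls were fewer (71 probe sets higher and 43 lower, 72 genes higher and 51 lower, 25 pairs), and Tcf3 did not pass (-0.75, limma adjusted p = 0.150). Receptors called per gene went from 3 to 5 when variances followed an intensity trend, to 5 when a gene's probe sets were averaged, and to 1 with that covariate (2 to 3 without single arrays). Leaving out single arrays, which lowers the number of samples, gave 243 to 380 probe sets higher and 115 to 194 lower, 216 to 368 genes higher and 104 to 165 lower, and 59 to 101 pairs. Only bright probe sets left 66 called pairs. Of the 2 called receptor pairs, 0 to 1 were called without single arrays, 1 with a pseudocount of 16, with only bright probe sets and with Xist as a covariate, and 0 with the beta-actin ratio.

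The replicate block gave 309 probe sets higher and 162 lower and 59 pairs, of which 0 were receptor pairs. Under the block 1421186_at of Ccr2 lost its call (adjusted p = 0.0923), and the other 3 receptor probe sets kept theirs. Of the 5 called signalling genes 1, Gng2, kept its call under the block (the other 4 had adjusted p 0.0722 to 0.0982), and Ccl5 lost its call (0.0543). Same-numbered arrays had correlated deviations from their group means of 0.0413, 0.0414 and -0.0360, and not every array correlated best with its own number, so the numbers were not taken as pairs.

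Signs turned only in changes that were not called. The Ccr9 probe set 1436065_at went to 0.094 with the beta-actin ratio, to 0.0035 with Xist and to between -0.074 and 0.022 without single arrays. Cxcr3 went to 0.040 with the beta-actin ratio and to between -0.099 and 0.010 without single arrays, and Cxcr4 to between -0.38 and 0.089 without single arrays. Apart from 12 such turns, 491 values of probe sets, genes and pairs kept direction and side of the threshold, and 10 gained a call. A call was lost in 44, among them the 4 called probe sets under the exact permutation test. Many of the 491 concern results without a call, and the permutation test cannot pass the threshold. The total thus does not measure how steady the calls were. Apart from that test, 1421186_at of Ccr2 lost its call in 9 of 16 alternatives and Ccr6 in 2 of 16. For 1421188_at of Ccr2 it was 1 of 16, and for 1422812_at of Cxcr6 1 of 15. Per gene it was 10 of 18 for Cxcr5, 1 of 18 for Ccr6 and 0 of 17 for Cxcr6. The cause of these changes was not tested. Dim signal near the floor limits what these arrays can show for Ccr9, Ccr4 and Cxcr3. The same limit holds for rises that start from dim wild-type signal. On the wild-type arrays the called Cxcr6 probe set lay below the lower quartile. Cxcr5, Ccr7 and the called probe sets of Ccr2 lay below the median there.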
